A study of Mus musculus with 21 samples.

Results

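Mitochondrial ribosomal protein genes were examined in mouse hearts after 8 weeks of exposure to polystyrene nanoplastics, very small plastic particles, or to distilled water as control. All mice were adult wild-type males, 4 with nanoplastics and 3 controls. From each heart, 1 bulk RNA library was made per section (atrial, right ventricle, left ventricle), which gives 21 libraries. No strain, age, particle dose or route of exposure is given in the sources used here. The genes were chosen by name: a symbol starting with Mrpl or Mrps followed by a digit, without the pseudogene ending -ps, of which 4 were left out. This gave 77 of the 20960 genes measured, 48 named Mrpl and 29 named Mrps.

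The mitochondrial ribosome makes the few proteins that mitochondrial DNA encodes, all of them parts of the respiratory chain and ATP synthase, on which a beating heart depends for its energy. Its ribosomal RNAs come from mitochondrial DNA, but its proteins are encoded in the nucleus, made in the cytosol and imported. Some descend from the proteins of bacterial ribosomes and others exist only in mitochondria. By this division the genes encode 30 large subunit proteins with a bacterial homologue, 20 mitochondria-specific large subunit proteins, 16 small subunit proteins with a bacterial homologue and 10 mitochondria-specific small subunit proteins. The remaining gene, Mrps36, carries the name only: its product is a subunit of the oxoglutarate dehydrogenase complex. Likewise, the products of Mrps30 and Mrps18a sit in the large subunit despite their names. The division is not strict, since Mrps18a and Mrps18b are relatives of a bacterial protein but are counted here as mitochondria-specific.

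Promoters of nuclear genes for mitochondrial proteins are known for binding sites of NRF1, of ETS factors such as GABP (also called NRF-2), and of YY1. RefSeq promoters of build GRCm38.p6, from 250 bases before to 50 bases after a gene's start, were at hand for 68 of the 77 genes, as 74 windows. The NRF1 motif (GCGCA, any base, then GCGC), searched on both strands like the others, occurred in 17.6% of these windows, against 10.8% of the 8440 windows of genes tested in the whole heart and 4.60% of all 32851 windows. The ETS motif CCGGAAG occurred in 33.8%, 18.9% and 8.86% in the same order, and the YY1 motif AAGATGGCG in 10.8%, 3.31% and 1.40%. The TATA box letters TATAAA were no more frequent, at 6.76%, 7.80% and 13.6%. At least 1 of the NRF1, ETS and YY1 motifs occurred in 40 of the 74 windows (54.1%), against 29.5% of the windows of tested genes. The ETS motif ends and the YY1 motif begins with AAG, so that both can lie in overlapping letters. A match is a run of letters and not a shown binding site.

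The stretches before the start of 5 genes are given here, each up to 250 bases and cut where an annotated exon of another transcript begins. That of Mrpl12 therefore ends 25 bases before the start, and that of Mrpl23 runs from 201 to 21 bases before it. Mrpl52 and Mrpl23 are shown because they are the genes called higher in nanoplastics hearts, Mrpl42 because it held the most counts, and Mrpl12 and Mrpl45 as examples with NRF1 motifs. They lie at chr14:54426659-54426908 (plus strand), chr7:142532831-142533011 (plus strand), chr10:95501950-95502199 (minus strand), chr11:120484387-120484612 (plus strand) and chr11:97315466-97315715 (plus strand). Each is written 5′ to 3′ in the direction of transcription, with capitals marking an ETS motif in Mrpl52 and NRF1 motifs in Mrpl12 and Mrpl45.
Mrpl52: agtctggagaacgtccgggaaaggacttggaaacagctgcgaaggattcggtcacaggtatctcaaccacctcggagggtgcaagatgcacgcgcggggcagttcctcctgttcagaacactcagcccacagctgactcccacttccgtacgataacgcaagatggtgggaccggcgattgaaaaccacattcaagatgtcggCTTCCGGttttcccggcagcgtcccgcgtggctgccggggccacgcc
Mrpl23: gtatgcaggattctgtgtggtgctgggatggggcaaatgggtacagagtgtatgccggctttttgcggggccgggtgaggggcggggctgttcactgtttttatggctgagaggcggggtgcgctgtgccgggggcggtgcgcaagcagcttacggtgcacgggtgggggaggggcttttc
Mrpl42: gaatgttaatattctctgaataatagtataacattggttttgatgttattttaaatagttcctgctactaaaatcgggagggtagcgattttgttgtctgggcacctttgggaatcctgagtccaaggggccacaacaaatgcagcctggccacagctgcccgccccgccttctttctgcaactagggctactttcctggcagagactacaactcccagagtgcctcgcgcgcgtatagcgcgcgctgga
Mrpl12: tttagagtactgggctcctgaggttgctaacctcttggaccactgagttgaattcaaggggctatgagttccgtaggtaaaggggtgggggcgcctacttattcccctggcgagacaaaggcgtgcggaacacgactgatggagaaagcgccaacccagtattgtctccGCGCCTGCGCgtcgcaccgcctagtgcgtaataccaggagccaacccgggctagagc
Mrpl45: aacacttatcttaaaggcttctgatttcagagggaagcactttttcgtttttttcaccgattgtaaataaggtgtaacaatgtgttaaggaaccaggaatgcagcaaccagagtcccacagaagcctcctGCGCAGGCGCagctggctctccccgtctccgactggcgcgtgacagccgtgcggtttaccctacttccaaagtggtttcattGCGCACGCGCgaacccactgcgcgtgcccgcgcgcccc
The ETS motif of Mrpl52, read on the opposite strand, begins 47 bases before the start. The NRF1 motif of Mrpl12 begins 81 bases before it, and Mrpl45 holds 2 of them, the farther beginning 120 bases before it. No motif lies in the stretches of Mrpl23 and Mrpl42, and the YY1 letters of Mrpl42 fall within the 50 bases after its start, which are not shown.

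Library totals ranged from 413436 to 2439314 counts, except for the right ventricle of nanoplastics mouse 2 with 4662. In that library 1 count equals 214.5 CPM (counts scaled to a fixed library total), 33 of the 77 genes had a count, and a gene at 0 can lie anywhere up to 643.5 CPM (3 counts, counting error only). It enters the tests, and the right ventricular fit changed without it, as given further on. It is left out of the levels given for the right ventricle. All 77 genes had counts in each of the other 20 libraries. The label of the atrial section did not match atrial muscle in most libraries: the summed level of 5 atrial muscle markers was 29.3 to 63890 CPM in the 4 nanoplastics libraries, with a median of 1732 CPM, and 212 to 643 CPM in the 3 control libraries. The ventricular markers summed there to 8633 to 12270 CPM in nanoplastics libraries and 7822 to 10760 CPM in control libraries. The library at 63890 CPM was the atrial section of nanoplastics mouse 1. Leaving out both of these libraries gave 3 called genes in the whole heart instead of 2, among 222 called of 8439 tested genes (2.63%).

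The 77 genes held 318638 counts, 1.25% of all counts, and a few of them held much of that sum. Mrpl42, a mitochondria-specific protein of the large subunit, held 12.8% of these counts, and Mrpl30, the homologue of bacterial L30, held 8.11%. Over the 7 mice the genes' mean levels ran from 8.56 CPM for Mrps2 to 1642 CPM for Mrpl42, with a median of 111 CPM, and 42 of the 77 were above 100 CPM. Levels here are CPM scaled by TMM (trimmed mean of M-values, a scaling that lines up the bulk of genes between libraries), with the counts of a mouse's sections summed.

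Between genes, levels were compared per kilobase of the longest annotated transcript. On that scale Mrps21, which encodes the homologue of bacterial S21, stood highest with 725 CPM per kb. Mrpl30 followed with 598, Mrpl42 with 501 and Mrpl18 with 435 CPM per kb. Mrps2, the homologue of bacterial S2, was lowest with 3.42 CPM per kb, and the median of the 77 genes was 46.9 CPM per kb. By class, the median level was 61.4 CPM per kb for large subunit proteins with a bacterial homologue, 47.1 for mitochondria-specific large subunit proteins, 54.8 for small subunit proteins with a bacterial homologue and 27.3 for mitochondria-specific small subunit proteins. The barcode was added at the 5′ end of the RNA, and how evenly reads cover a transcript is not given in the sources used here, so these values per length are approximate.

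The first comparison asks whether these genes differ between nanoplastics and control hearts as a whole, with 1 summed value per mouse. Mrpl52 and Mrpl23 were higher in nanoplastics hearts, by log2 changes of 0.58 and 0.52, and no other gene of the group passed the test in either direction. That is 2 of 77 called genes, against 217 of the 8485 genes tested across the table (2.56% called, made up of 1.79% higher and 0.766% lower), so the share called among mitochondrial ribosomal protein genes lay at the background. The test was edgeR's quasi-likelihood test with Benjamini-Hochberg adjustment over all tested genes, and a call is an adjusted p under 0.05. In bulk tissue, fewer cells of a type and less RNA per cell cannot be told apart. The median log2 change of the 77 genes was 0.13, against -0.03 over all genes tested. At an unadjusted p under 0.05, 17 were higher and 3 lower, against 9.15% higher and 9.02% lower among all tested genes. This count turned with the scaling: with library totals in place of TMM, 3 were higher and 19 lower.

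Mrpl52, a mitochondria-specific protein of the large subunit, stood at 223, 185, 153 and 174 CPM in nanoplastics mice 1 to 4, against 134, 124 and 113 CPM in control mice 1 to 3. The lowest nanoplastics mouse was above the highest control mouse. The means were 184 ± 29.4 CPM in nanoplastics mice and 123 ± 10.6 CPM in controls (SD, n = 4 and 3), a log2 change of 0.58 (SE 0.14, adjusted p = 0.0374 by edgeR).

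Mrpl23, a homologue of bacterial L23, which lies by the exit of the tunnel through which the new protein leaves, stood at 188, 147, 152 and 155 CPM in nanoplastics mice, against 116, 101 and 119 CPM in controls. These groups did not overlap either. The means were 161 ± 18.5 CPM in nanoplastics mice and 112 ± 9.63 CPM in controls (SD, n = 4 and 3), a log2 change of 0.52 (SE 0.13, adjusted p = 0.0444 by edgeR). Its value is uncertain because its pseudogene Mrpl23-ps1 is 100% identical to it over 540 bases and held 1120 counts, against 3403 for Mrpl23. The pseudogene had 51.6 ± 4.14 CPM in nanoplastics mice and 37.3 ± 2.40 CPM in controls, a log2 change of 0.47 (adjusted p = 0.0830 by edgeR, not called).

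Both calls rest on few mice. Without nanoplastics mouse 1, nanoplastics mouse 2, control mouse 2 or control mouse 3, none of the 77 genes passed the test, and without nanoplastics mouse 3 only Mrpl52 did. Without nanoplastics mouse 4 or control mouse 1, Mrpl52 and Mrpl30 passed and Mrpl23 did not, so that Mrpl23 was lost in each of the 7 fits without 1 mouse. In the 4 fits with none of the genes called, the calls across the whole table numbered 32, 26, 0 and 27, in the same order. Without nanoplastics mouse 3, nanoplastics mouse 4 or control mouse 1 they numbered 201, 135 and 182 (2.33%, 1.63% and 2.07% of tested genes). With library totals in place of TMM, the log2 changes of Mrpl52 and Mrpl23 were 0.33 (adjusted p = 0.0990) and 0.27 (adjusted p = 0.158), both by edgeR and neither called.

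**Figure D1:**
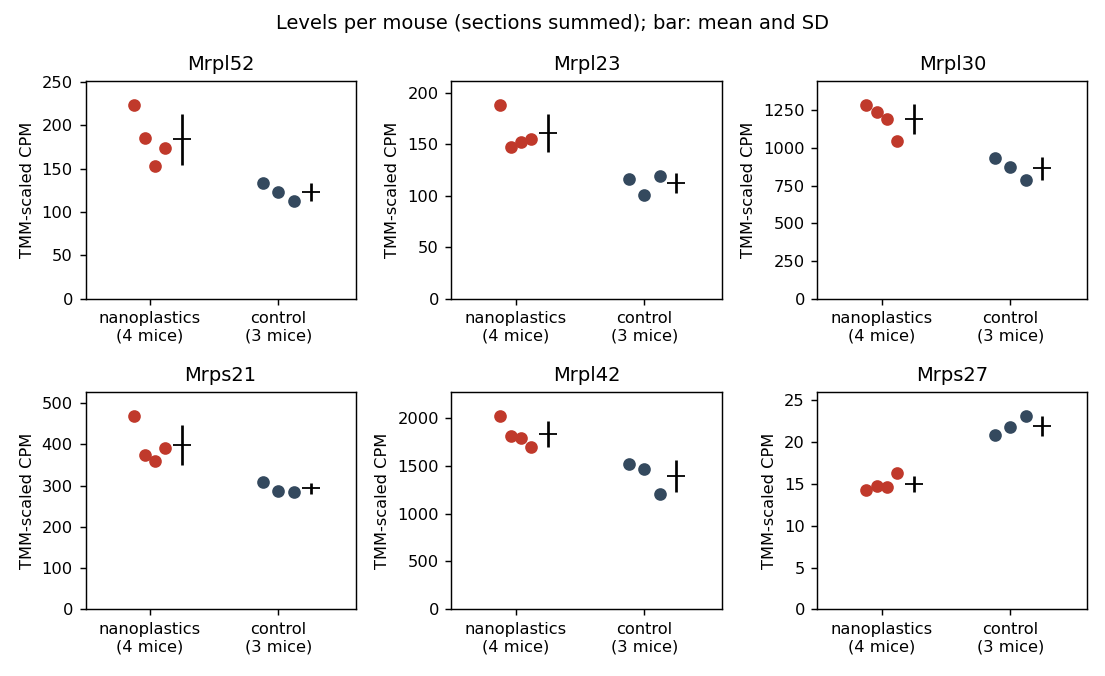
TMM-scaled CPM per mouse, with sections summed, of the 6 genes with the smallest p in the whole heart, nanoplastics mice (4, red) left of control mice (3, dark blue). Bars are mean and SD. In each panel the groups do not overlap, with nanoplastics mice above controls in 5 panels and below them for Mrps27.

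The next 4 genes by p came close to the threshold without passing it. Mrpl30 stood at 1285, 1237, 1194 and 1050 CPM in nanoplastics mice and at 937, 871 and 785 CPM in controls, a log2 change of 0.46 (SE 0.13, adjusted p = 0.0503 by edgeR). Mrps21 stood at 469, 373, 360 and 391 CPM in nanoplastics mice and at 309, 287 and 285 CPM in controls, a log2 change of 0.44 (adjusted p = 0.0795 by edgeR). For Mrpl30 and Mrps21, every nanoplastics mouse was above every control mouse. Mrpl42 stood at 2019, 1808, 1786 and 1699 CPM in nanoplastics mice and at 1513, 1463 and 1203 CPM in controls, a log2 change of 0.39 (adjusted p = 0.0887 by edgeR). Mrps27, a small subunit protein built of pentatricopeptide repeats, went the other way. It stood at 14.3, 14.8, 14.6 and 16.4 CPM in nanoplastics mice and at 20.8, 21.8 and 23.1 CPM in controls, a log2 change of -0.54 (SE 0.17, adjusted p = 0.0942 by edgeR). The counts of Mrps27 can include reads of 6430562O15Rik, a gene on the opposite strand that overlaps it, since the use of strand is not given in the sources used here.

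Across the group, nanoplastics mice lay wholly above controls for 16 of the 77 genes (20.8%), against 7.88% of all tested genes, and wholly below for Mrps23 and Mrps27 (2.60%), against 8.17%. This count depends on the scaling. With library totals instead of TMM, nanoplastics mice lay wholly above controls for 4 of the 77 genes (5.19%), against 2.49% of all tested genes, and wholly below for 21 (27.3%), against 23.0%. That scaling moved the median of all tested genes by -0.24, to -0.27, and the median of the 77 genes to -0.12. The difference between the 2 medians was 0.16 with TMM and 0.15 with library totals, but it nearly closed once the length trend described further on was removed from the counts, with a median of 0.05 for the 77 genes and 0.02 for all tested genes. With library totals, 6 of the 77 genes were called, all lower (Mrpl2, Mrpl3, Mrpl45, Mrps18a, Mrps23 and Mrps27), beside 797 of all tested genes (9.39% called, of which 8.89% lower).

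**Figure D2:**
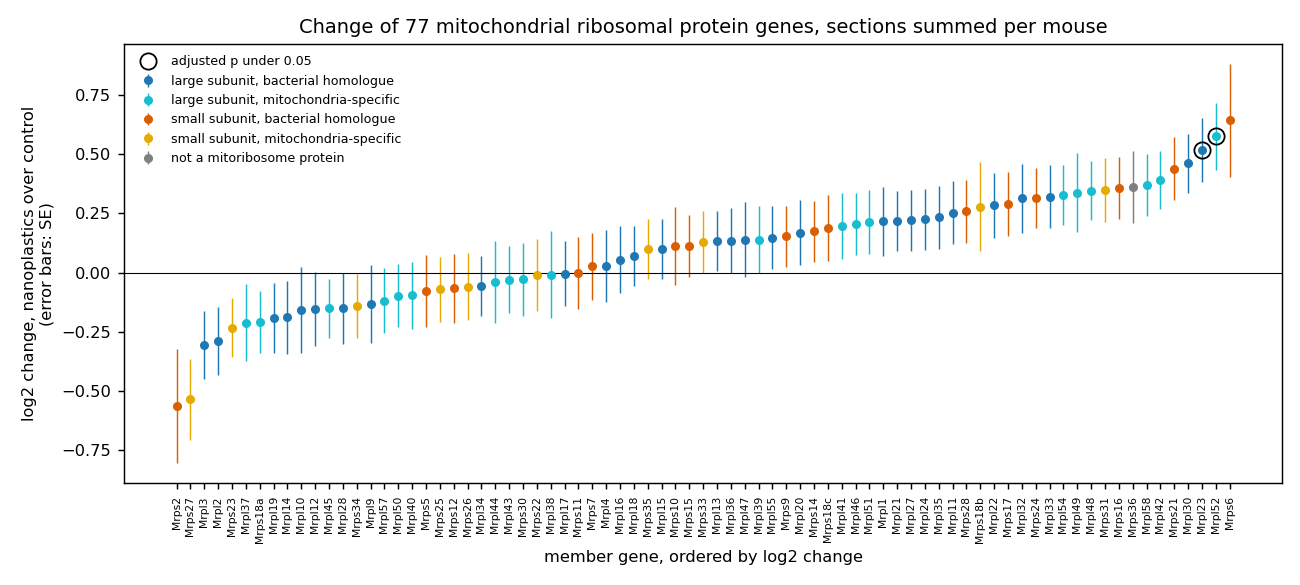
Log2 change in nanoplastics over control hearts (y axis, with SE bars) of the 77 genes, ordered along the x axis by that change and coloured by subunit and origin. Circles mark Mrpl52 and Mrpl23, the genes with adjusted p under 0.05, and the changes run from -0.56 (Mrps2) to 0.64 (Mrps6).

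The summed level of the group turned with the scaling in the same way. As a share of all counts, the 77 genes made up 1.23 ± 0.0125% in nanoplastics mice (1.21 to 1.24%) and 1.27 ± 0.0284% in controls (1.26 to 1.31%; SD, n = 4 and 3), so that nanoplastics mice were lower. With TMM scaling the sum was 13324 ± 641 CPM in nanoplastics mice and 11651 ± 625 CPM in controls, so that nanoplastics mice were higher. By section, TMM-scaled sums were 13725 ± 622 CPM in nanoplastics and 11869 ± 731 CPM in control atrial sections (SD, n = 4 and 3). They were 14385 ± 1150 CPM in nanoplastics and 12651 ± 680 CPM in control right ventricles (n = 3 each). In left ventricles they were 14473 ± 356 CPM with nanoplastics and 12999 ± 463 CPM in controls (n = 4 and 3). A direction for the group as a whole is therefore not given by these data.

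**Figure D3:**
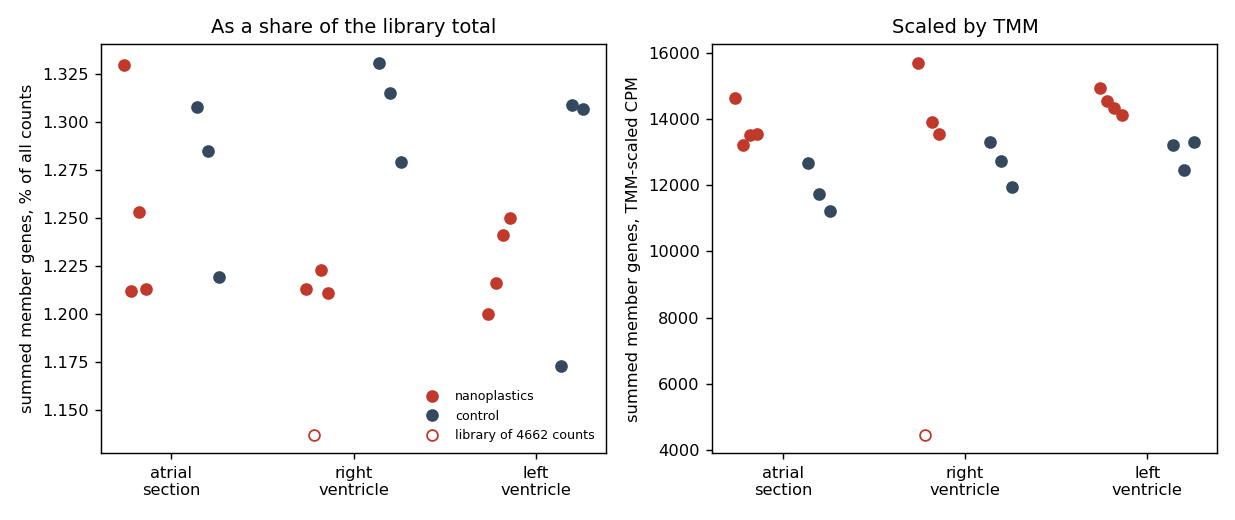
Summed level of the 77 genes per library (y axes) by section, nanoplastics (red) left of control (dark blue), as a percent of all counts in the left panel and as TMM-scaled CPM in the right panel. The open circle is the library of 4662 counts. On the TMM scale the nanoplastics libraries of each section, without the open circle, lie above the control libraries, and as percent of all counts the groups overlap in the atrial section and the left ventricle.

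Within the group, shares of counts need no scaling between libraries. Mrpl42 and Mrpl30 together held 22.6 ± 0.786% of the counts of the 77 genes in nanoplastics mice (21.6 to 23.2%), against 19.3 ± 1.15% in controls (18.0 to 20.1%; SD, n = 4 and 3). The same share was 22.1 ± 0.698% in nanoplastics and 18.6 ± 0.793% in control atrial sections, 23.9 ± 0.732% in nanoplastics and 19.4 ± 1.21% in control right ventricles (n = 3 each), and 22.7 ± 1.10% in nanoplastics and 19.8 ± 0.934% in control left ventricles. The groups did not overlap in any of the 3 sections. The pair was chosen after its values were seen and the difference was not tested. The share of Mrpl52 was 1.38 ± 0.168% in nanoplastics mice and 1.06 ± 0.0344% in controls, and that of Mrpl23 was 1.20 ± 0.0869% in nanoplastics mice and 0.965 ± 0.107% in controls. The small subunit as a whole kept close to the same share, 25.7 ± 0.274% in nanoplastics mice and 26.1 ± 0.296% in controls.

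**Figure D4:**
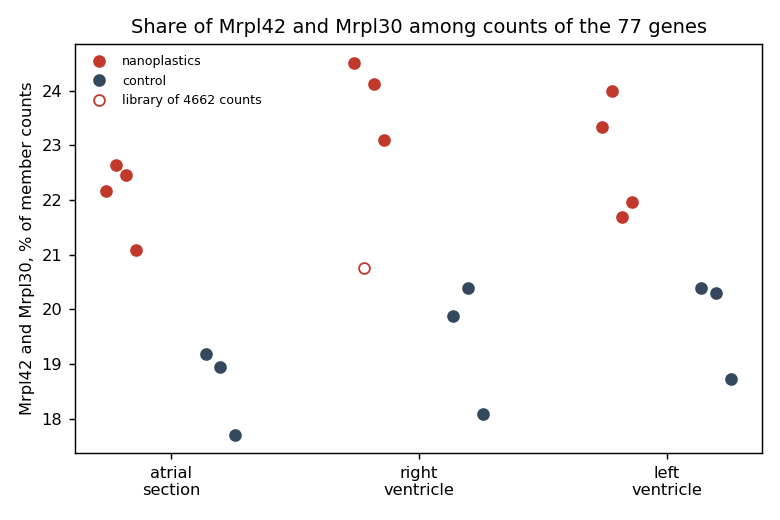
Share of Mrpl42 and Mrpl30 together among the counts of the 77 genes (percent, y axis) in each library by section, nanoplastics (red) left of control (dark blue). Nanoplastics libraries lie between 21.1 and 24.5% and control libraries between 17.7 and 20.4%, apart from the open circle, the library of 4662 counts, which has 53 counts of these genes.

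Other measures of the libraries moved with treatment. The median annotated transcript length per count, without mitochondrially encoded genes, was 1318 to 1563 nt in nanoplastics and 1697 to 1796 nt in control atrial sections. It was 1473 to 1596 nt in nanoplastics and 1698 to 1791 nt in control right ventricles, and 1499 to 1598 nt in nanoplastics and 1633 to 1749 nt in control left ventricles. The 77 genes are short, with a median length of 1884 nt against 3107 nt for all tested genes. Among the shortest 1682 tested genes (57 to 1644 nt), 119 were called higher and 10 lower (7.67%). In that class lie 33 of the 77 genes, of which Mrpl52, at 856 nt, was called. Mrpl23, at 3715 nt, lies in the class of 3659 to 5061 nt, where 7 genes were called higher and 22 lower. All these lengths are those of the longest annotated transcript, which need not be the main one in these hearts. The length class of Mrpl23 is therefore uncertain, and the removal of the length trend used the same lengths. With the length trend removed from the counts, Mrpl52 had a log2 change of 0.36 (adjusted p = 0.141 by edgeR) and was not called, while Mrpl23 (0.62), Mrpl30 (0.47) and Mrpl42 (0.48) were. Over all 8485 tested genes, 86 were called in that fit (1.01%).

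Level and change went together to some degree. Spearman's rho between the level and the log2 change was 0.38 across the 77 genes, against 0.19 across all tested genes, and that between length and log2 change was -0.12 across the 77 genes, against -0.26 across 8407 tested genes with a length. These are descriptions across genes that share the same libraries.

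**Figure D5:**
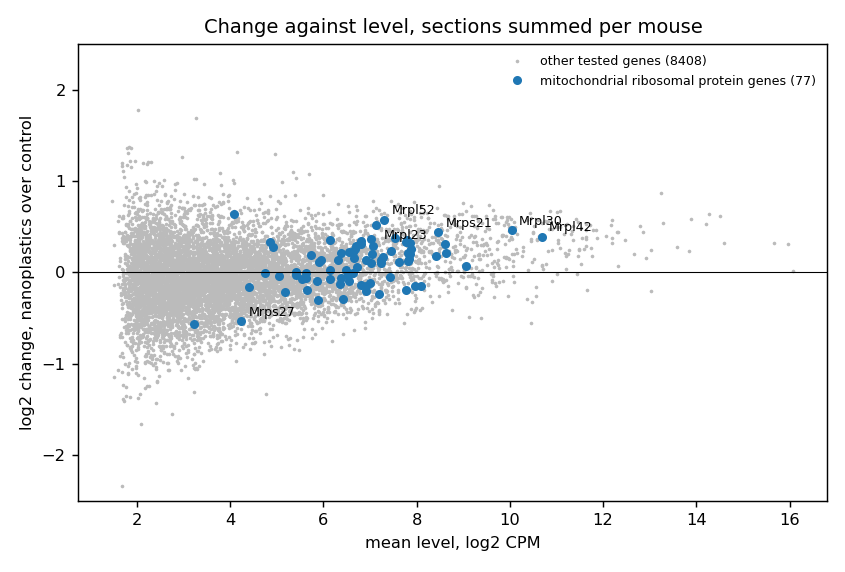
Mean level (log2 CPM, x axis) against log2 change in nanoplastics over control hearts (y axis) for the 77 genes (blue) and the other tested genes (grey); 4 genes outside ±2.5 are not drawn. The 77 genes lie between -0.56 and 0.64, within the cloud of the other genes, and the labelled genes are the 6 with the smallest p.

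By origin and place, the large subunit proteins with a bacterial homologue had 1 of 30 genes called (Mrpl23) and a median log2 change of 0.13. The mitochondria-specific large subunit proteins had 1 of 20 called (Mrpl52) and a median of 0.07. None of the 16 small subunit proteins with a bacterial homologue was called, with 13 of 16 changes above 0 and a median of 0.16. None of the 10 mitochondria-specific small subunit proteins was called, with 4 of 10 changes above 0 and a median of -0.03. Over all tested genes 46.6% of changes were above 0. These class values rest on TMM scaling. With library totals, 21 of the 77 genes were above 0, with a median of -0.12 against -0.27 over all tested genes. The classes also differ in length, with medians of 1732.5, 2167, 1538.5 and 2254.5 nt in the order given. The part of length in the class medians was not tested. Genes with an NRF1 motif in the promoter had a median log2 change of -0.04 (13 genes), against 0.15 without it (55 genes). The medians were 0.13 with (25 genes) and 0.14 without (43 genes) for the ETS motif, and 0.07 (8 genes) and 0.14 (60 genes) for the YY1 motif.

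Genes with special roles were followed whatever their change, and none passed edgeR's test with TMM scaling in the whole heart. DESeq2 called Mrpl58 higher there (0.40, adjusted p = 0.0492), among 333 of 8485 genes in all (3.92%). With library totals, edgeR called Mrpl3 and Mrps18a lower, as given above. Mrpl12, whose product is part of the stalk that recruits translation factors and also binds the mitochondrial RNA polymerase, had 238 ± 52.1 CPM in nanoplastics mice and 264 ± 33.1 CPM in controls (SD, n = 4 and 3 here and below), a log2 change of -0.15 (adjusted p = 0.671 by edgeR). Mrps12, part of the decoding centre, had 80.7 ± 13.2 CPM in nanoplastics mice and 84.9 ± 6.43 CPM in controls, a difference within the spread of the mice. Mrpl11, at the site where translation factors bind, had 109 ± 11.3 CPM in nanoplastics mice and 91.5 ± 5.94 CPM in controls, a log2 change of 0.25 (adjusted p = 0.324 by edgeR).

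Defects of Mrpl3 and Mrpl44 are known to cause heart muscle disease in humans. Mrpl3 had 53.0 ± 5.42 CPM in nanoplastics mice and 65.4 ± 7.71 CPM in controls, a log2 change of -0.31 (adjusted p = 0.264 by edgeR). Mrpl44 had 31.9 ± 6.68 CPM in nanoplastics mice and 32.9 ± 3.72 CPM in controls. Mrps7, Mrps16, Mrps22 and Mrps34, small subunit genes that also underlie inherited mitochondrial disease in humans, had log2 changes of 0.03, 0.36, -0.01 and -0.14. Of these, only Mrps16 had groups that did not overlap, at 243 ± 17.3 CPM in nanoplastics mice and 190 ± 20.4 CPM in controls (adjusted p = 0.144 by edgeR).

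Mrps18a, Mrps18b and Mrps18c descend from the same bacterial protein, S18, although Mrps18a and Mrps18b are counted here among the mitochondria-specific proteins. Mrps18a had 112 ± 12.7 CPM in nanoplastics mice and 130 ± 9.17 CPM in controls. Mrps18b had 32.3 ± 5.59 CPM in nanoplastics mice and 27.1 ± 6.92 CPM in controls, and Mrps18c had 55.7 ± 3.80 CPM in nanoplastics mice and 48.8 ± 2.93 CPM in controls. Only for Mrps18c did the groups not overlap, and its log2 change of 0.19 was not called (adjusted p = 0.516 by edgeR). Mrpl58, a release factor built into the large subunit that frees stalled ribosomes, stood at 225, 180, 200 and 216 CPM in nanoplastics mice, against 168, 149 and 160 CPM in controls. Its groups did not overlap, with a log2 change of 0.37 (adjusted p = 0.127 by edgeR), and its counts can include those of the antisense gene Ict1os. Mrps30 had 41.4 ± 4.52 CPM in nanoplastics mice and 42.0 ± 5.68 CPM in controls. Mrps36, which is not a ribosomal protein, had 144 ± 30.2 CPM in nanoplastics mice and 112 ± 10.2 CPM in controls, a log2 change of 0.36 (adjusted p = 0.203 by edgeR).

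Mrps6 and Mrps2 marked the ends of the range, both at low levels. Mrps6, the homologue of bacterial S6, stood at 32.0, 15.2, 14.2 and 17.8 CPM in nanoplastics mice and at 11.7, 13.97 and 12.4 CPM in controls, a log2 change of 0.64 (adjusted p = 0.150 by edgeR). In nanoplastics mouse 1 the atrial library held 66.7 CPM, against 12.9 to 19.4 CPM in the other atrial libraries, and this was the library rich in atrial muscle transcripts. The part of those cells in this value was not tested. Mrps6 also overlaps Slc5a3 and Gm16310 on the same strand, so that its reads cannot be fully told apart. Mrps2 stood at 5.65, 7.39, 8.76 and 6.60 CPM in nanoplastics mice and at 8.12, 12.7 and 10.7 CPM in controls, a log2 change of -0.56 (adjusted p = 0.209 by edgeR).

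The next comparison takes each section by itself. None of the 77 genes passed the test in the atrial section, where no gene of 5502 did (0% called, 674 at an unadjusted p under 0.05), but DESeq2 called Mrpl42 there (adjusted p = 0.0372) among 94 genes in all. None of the 76 tested passed in the right ventricle, where 39 of 4489 genes did (0.869% called). None of the 77 passed in the left ventricle, where 3 of 5440 genes did (0.0551% called), but DESeq2 called Mrpl52 there (adjusted p = 0.0319) among 80 genes in all. In the right ventricle, edgeR called Mrpl49 (1.06, adjusted p = 0.0337) once nanoplastics mouse 3 was left out, among 175 of 4769 genes (3.67%). The nanoplastics libraries of that fit were those of mice 1 and 4 and the small library of mouse 2. Mrpl49 had no count in that small library, so its call rests on mice 1 and 4. DESeq2 called none in the right ventricle. The median log2 change of the genes was 0.10 in atrial sections and 0.07 in both ventricles, against -0.03, -0.01 and -0.02 over all genes tested in the same order. At an unadjusted p under 0.05, 7 were higher and 1 lower in the atrial section, against 6.47% and 5.78% of all tested genes. In the right ventricle 7 were higher and 1 lower, against 6.82% and 6.68%, and in the left ventricle 8 were higher and 4 lower, against 6.73% and 7.39%. Without the small right ventricular library of nanoplastics mouse 2, 14 of the 76 genes were higher and 2 lower there. Among all genes, 758 of 5201 had such a p in that fit, against 606 of 4489 with the library. After adjustment, edgeR called 68 genes (1.31%) without the library, none of them among the 76.

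These section medians and counts depended on the processing. With library totals the medians of the genes were -0.13, -0.22 and -0.11 in atrial sections, right ventricles and left ventricles, against -0.26, -0.29 and -0.21 over all tested genes. At an unadjusted p under 0.05, library totals gave 0 higher and 4 lower genes in the atrial section, 0 and 16 in the right ventricle, and 1 and 15 in the left ventricle. The right ventricle also turned under other choices, with a median of -0.06 with DESeq2, -0.03 with DESeq2 size factors in edgeR (2 higher and 5 lower) and -0.10 without a filter on low counts (1 higher and 7 lower). These fits held the small right ventricular library of nanoplastics mouse 2. Without it, edgeR with TMM gave a median of 0.06, and the other choices were not fitted without it. With the length trend removed, the medians of the genes were 0.01, 0.05 and 0.03, close to the 0.01, 0.05 and 0.02 over all tested genes.

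The 2 genes called in the whole heart had values of similar size in each section. In atrial sections Mrpl52 stood at 280, 187, 152 and 176 CPM in nanoplastics mice and at 121, 155 and 105 CPM in controls. In the right ventricle it stood at 257, 194 and 186 CPM in nanoplastics mice 1, 3 and 4 and at 155, 131 and 140 CPM in controls. In the left ventricle it stood at 203, 206, 148 and 215 CPM in nanoplastics mice and at 143, 122 and 103 CPM in controls. The groups overlapped only in the atrial section, where control mouse 2 was above nanoplastics mouse 3. The log2 changes were 0.62, 0.57 and 0.60 (adjusted p = 0.306, 0.215 and 0.138 by edgeR, in the order atrial, right and left).

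Mrpl23 stood at 197, 155, 171 and 156 CPM in nanoplastics and at 127, 116 and 120 CPM in control atrial sections. It stood at 168, 144 and 174 CPM in the right ventricles of nanoplastics mice 1, 3 and 4 and at 117, 96.1 and 132 CPM in those of controls. In the left ventricle the values were 206, 155, 163 and 189 CPM in nanoplastics mice and 129, 114 and 138 CPM in controls. The groups did not overlap in any section. The log2 changes were 0.47, 0.47 and 0.49 (adjusted p = 0.312, 0.359 and 0.173 by edgeR).

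Nanoplastics libraries lay wholly above controls in the atrial section for 10 of 77 genes (13.0%; background 7.11%), in the right ventricle without the library of 4662 counts for 17 of 76 (22.4%; background 11.9%), and in the left ventricle for 12 of 77 (15.6%; background 6.86%). They lay wholly below for 1, 4 and 5 genes, against backgrounds of 6.05%, 10.2% and 5.66%. In each of the 3 sections at once they lay above for 8 of 76 genes (10.5%), against 119 of 4451 genes tested in all sections (2.67%). These were Mrpl21, Mrpl23, Mrpl30, Mrpl42, Mrpl48, Mrpl54, Mrps16 and Mrps21. The sections come from the same mice, and these counts rest on TMM scaling.

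The other genes with the smallest p differed between sections. In the atrial section, Mrps36 stood at 230, 144, 122 and 167 CPM in nanoplastics mice and at 127, 87.5 and 102 CPM in controls (log2 change 0.63, adjusted p = 0.305 by edgeR), with overlap between the groups. In the right ventricle, Mrpl49, a mitochondria-specific large subunit protein, stood at 51.9, 28.0 and 56.2 CPM in nanoplastics mice and at 24.0, 27.5 and 25.9 CPM in controls (log2 change 0.73, adjusted p = 0.176 by edgeR). Nanoplastics mouse 3 lay next to the controls. Mrpl58 (0.52), Mrps6 (0.77) and Mrps27 (-0.81) were the others with the smallest p there, none called. In the left ventricle, Mrpl37, another mitochondria-specific large subunit protein, stood at 34.6, 28.7, 27.5 and 23.2 CPM in nanoplastics mice and at 40.7, 45.6 and 41.9 CPM in controls (log2 change -0.59, adjusted p = 0.205 by edgeR). Mrps2 there had 6.59 ± 2.21 CPM in nanoplastics mice and 11.9 ± 3.65 CPM in controls (log2 change -0.98, adjusted p = 0.230 by edgeR). The log2 changes of Mrpl42 were 0.44, 0.28 and 0.33 in atrial sections, right ventricles and left ventricles, and those of Mrpl30 were 0.43, 0.47 and 0.35, none called by edgeR.

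An interaction term, fitted to all 21 libraries with a term for each mouse, tested whether the difference between nanoplastics and control mice varied by section. Of 6269 genes none was called (0% called), with 345 at an unadjusted p under 0.05 for the atrial section minus the left ventricle and 188 for the right minus the left ventricle, and none of the 77 genes was among these. DESeq2 called 1 gene in the atrial and 0 genes in the ventricular comparison, none of them among the 77. The smallest p belonged to Mrps6 for the atrial section minus the left ventricle (difference of log2 changes 0.79, SE 0.42, adjusted p = 0.931 by edgeR) and to Mrpl49 for the right minus the left ventricle (0.62, SE 0.34, adjusted p = 1.000 by edgeR). Mrpl37 (0.45) and Mrps36 (0.33) followed in the atrial comparison, and Mrps31 (-0.46) and Mrpl1 (-0.43) in the ventricular comparison.

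Between sections, with the mouse as a block, none of the 77 genes passed the test either. For the atrial section over the left ventricle, 8 of 5176 genes were called (0.155% called), and the median log2 difference of the 77 genes was -0.06, with 55 of 77 below 0, against 51.4% above 0 over all tested genes. With library totals the direction turned, to a median of 0.05 with 50 of 77 above 0, against a median of 0.12 over all tested genes. Mrps33, a mitochondria-specific small subunit protein, had a median of 210 CPM (165 to 263) in atrial sections and 266 CPM (232 to 296) in left ventricles, a log2 difference of -0.30 (SE 0.10, adjusted p = 0.204 by edgeR). Mrpl4, the homologue of bacterial L4, had a median of 88.7 CPM (71.0 to 96.8) in atrial sections and 62.0 CPM (54.5 to 98.5) in left ventricles, a log2 difference of 0.37 (SE 0.12, adjusted p = 0.206 by edgeR). The ranges overlapped for both genes. Mrps35, of the small subunit, had a log2 difference of -0.28 (adjusted p = 0.264 by edgeR).

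For the atrial section over the right ventricle, 30 of 4954 genes were called (0.606% called), and the median log2 difference of the 76 tested genes was -0.01 (0.05 with library totals). The smallest p belonged to Mrps12, with a log2 difference of 0.34 (adjusted p = 0.554 by edgeR), followed by Mrpl4 (0.33) and Mrps6 (0.47). For the right over the left ventricle, 1 of 5012 genes was called (0.02% called), and the median was -0.04 (0.01 with library totals). Mrps11, the homologue of bacterial S11, had a log2 difference of -0.30 (adjusted p = 0.914 by edgeR), Mrpl40 had 0.22 and Mrpl32 had 0.19. DESeq2 called none of these genes between sections. Levels of the most abundant gene, Mrpl42, had medians of 1772 CPM (1204 to 1946) in atrial sections, 1781 CPM (1331 to 2300) in right ventricles and 1811 CPM (1411 to 2167) in left ventricles, ranges that largely overlap.

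Other genes of mitochondrial translation were read beside the group in the whole heart. Dap3, Ptcd3, Chchd1, Aurkaip1 and Gadd45gip1 encode mitochondrial ribosomal proteins under other names. None of the 5 was called and all 5 had changes above 0, with a median log2 change of 0.21. The largest was that of Chchd1, with 446 ± 28.5 CPM in nanoplastics mice and 338 ± 28.4 CPM in controls, a log2 change of 0.40 (adjusted p = 0.0981 by edgeR). Of 16 factors of mitochondrial translation, 1 fell and none rose, with a median of -0.05. The one that fell was Tsfm, the exchange factor that recharges the mitochondrial elongation factor Tu, with 24.9 ± 4.14 CPM in nanoplastics mice and 39.8 ± 2.06 CPM in controls, a log2 change of -0.69 (SE 0.16, adjusted p = 0.0332 by edgeR).

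None of 24 assembly factors of the mitochondrial ribosome was called, with a median log2 change of -0.16, and none of 18 mitochondrial aminoacyl-tRNA synthetases, with a median of 0.00. None of 14 genes of mitochondrial DNA transcription and upkeep was called (median 0.03), and none of 28 genes of protein import (median 0.05). Among 12 regulators of the nuclear genes for mitochondria, 1 fell: Ppara, a fatty acid receptor that drives genes of fat burning, had 5.11 ± 1.31 CPM in nanoplastics mice and 12.4 ± 1.16 CPM in controls, a log2 change of -1.31 (adjusted p = 0.0183 by edgeR). Over all tested genes 0.766% were called lower. Without control mouse 2 no gene of 8725 was called in the whole heart. The whole-heart calls of Tsfm, Ppara and the cell type markers named below were thus lost in that fit.

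Markers of cell types of the heart were read in the same comparison. Their summed levels are CPM of library totals, without the library of 4662 counts, while log2 changes rest on TMM. All 6 fibroblast markers tested had changes above 0, with a median log2 change of 0.65, and Dcn was called higher. Their summed level ranged from 1403 to 2623 CPM in nanoplastics and 1293 to 2013 CPM in control atrial sections, from 1086 to 1565 CPM in nanoplastics and 1075 to 1421 CPM in control right ventricles, and from 1207 to 1583 CPM in nanoplastics and 1047 to 1427 CPM in control left ventricles. All 6 cardiomyocyte markers were above 0, with a median of 0.33, and Tnni3 was called higher. Of 6 endothelial markers 1 was above 0, with a median of -0.18 and none called. Their summed level was 1002 to 1338 CPM in nanoplastics and 1319 to 1344 CPM in control atrial sections, 909 to 1304 CPM in nanoplastics and 1303 to 1519 CPM in control right ventricles, and 1025 to 1337 CPM in nanoplastics and 1065 to 1352 CPM in control left ventricles.

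Of the 2 ventricular muscle markers tested 1 was above 0, with a median of 0.12. It was Myl2, the ventricular myosin light chain, and it was called higher (log2 change 0.54, adjusted p = 0.0250 by edgeR). All 4 atrial muscle markers tested were above 0 with a median of 6.32 and none called, beside the 1 atrial library at 63890 CPM, and in the right ventricle Nppa, the gene for atrial natriuretic peptide, was called higher (1.08, adjusted p = 0.00857 by edgeR). All 4 erythroid markers tested were above 0 with a median of 0.60, none called, and their sums overlapped in each section. Of 5 smooth muscle and pericyte markers 4 were above 0 in the whole heart, with a median of 0.40 and none called. In the right ventricle their summed level was 135 to 306 CPM in nanoplastics and 387 to 447 CPM in control libraries, which did not overlap, and Rgs5, a marker of pericytes, was called lower there (-0.87, adjusted p = 0.0456 by edgeR). Of 5 macrophage markers 3 were above 0, with a median of 0.26 and none called, and the 4 adipocyte markers summed to 0 to 31.3 CPM over all sections, with none tested. The part of cell makeup in the values of the mitochondrial ribosomal protein genes was not tested.

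The measured levels of the genes varied together only weakly. Over the 20 libraries above 100000 counts, after the mean of each section and treatment group was removed, the median Pearson r between pairs of the 74 genes with at least 20 CPM was 0.05. The median r of such a gene with the summed level of the group was 0.26, against 0.04 for all 3295 genes at that level, where a member is itself part of the sum. Outside the group, the genes whose levels followed the sum most closely were Pkig (r = 0.93), an inhibitor of protein kinase A, Ndufa4 (r = 0.93), a protein of the respiratory chain, Atp5md (r = 0.90), a small subunit of ATP synthase, Hint3 (r = 0.90) and Gm11966 (r = 0.89). These are descriptions over libraries that share depth and scaling. Counting error at low counts also lowers r between single genes, and its part here was not tested. The sum itself is weighted toward its most abundant genes, Mrpl42 and Mrpl30.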

How the data were processed

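RNA of 21 heart sections was sequenced after oligo-dT capture and barcoding at the 5′ end (Singleron AccuraCode kit), per the labels' protocols. Reads were paired-end on an Illumina NovaSeq instrument, per the labels. The submitters' processing notes name STAR without a version. The sources used here do not give the build, annotation, counting program, strand use or molecular identifiers. The authors deposited raw counts per gene symbol.

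Each numbered mouse is a separate animal, per the labels, and no 2 libraries were identical. The mitochondrial ribosomal protein genes and all lists were chosen with earlier results of these data known. Counts were analysed on the whole table in R 4.3.3 with edgeR 4.0.16 (filterByExpr, TMM, robust quasi-likelihood test, Benjamini-Hochberg over all tested genes). For the whole heart a mouse's 3 libraries were summed. The labels do not link nanoplastics and control animals of equal number, so no block was used there. Sections and interactions had the mouse as a block. The steps were tested on simulated counts. Alternatives were DESeq2 1.42.0 as test, its size factors in edgeR, limma 3.58.1 (voom), library totals, no filter, a replicate block, the length trend removed, ventricles alone, and leaving out each mouse or doubtful library.

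In each treatment comparison the text names the called genes, or the 6 with the smallest p where fewer are called; 3 in each section or interaction comparison; 15 fixed for their roles; the 5 mitochondrial ribosomal proteins under other names; up to 3 called genes per list; and the 5 most alike. Others named were picked after their values were seen. Lengths, overlaps and pseudogenes come from GENCODE M21, by symbol (all 77 genes), and promoters from RefSeq (GRCm38.p6). Of the 77 genes, 19 have a pseudogene copy (at least 95% identity over at least 200 bases) and 32 overlap another gene of the table, so that reads may be split or shared. Reads are not known to be independent molecules, so floors cover counting error only.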

Additional observations from a re-analysis of the deposited data

Results flagged for a closer look

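The level of Mrps30, a large subunit protein despite its name, was 34.7 CPM in nanoplastics mouse 1, against 42.7 to 44.2 CPM in the other nanoplastics mice (whole heart, TMM-scaled). The gap between mouse 1 and its nearest neighbour was 0.844 of the range of the group, above Dixon's critical value for 4 samples. Of 36 groups examined this was the only such case, and chance gives about 1 in 20.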

How the results depend on the processing

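The whole-heart count of called genes, 2, was 6 with DESeq2 and 5 with a replicate block, all higher. It was 6 (all lower, so reversed) with library totals and 0 to 2 with 1 mouse left out. It was 2 or 3 under the other alternatives. Over all tested genes, 333 (3.92%) were called with DESeq2, 313 (3.69%) with a replicate block and 797 (9.39%) with library totals. That share was 0 to 2.33% with 1 mouse left out and 1.01 to 4.26% under the other alternatives. Section counts of 0 were 1 with DESeq2 in the atrial section and in the left ventricle. In the right ventricle they were 1 (Mrpl14, lower) with library totals, among 234 of 4489 tested genes (5.21%), and 0 to 1 with 1 mouse left out. The share called of all genes tested there was 0.0932 to 3.67% with 1 mouse left out. Other alternatives gave 0, as did every alternative between sections and for interactions. The block added Mrpl30, Mrpl42 and Mrps21. Same-numbered nanoplastics and control mice deviated together with r of 0.07, 0.09 and -0.04. Between sections of 1 mouse, r was as low as 0.0075 (atrial section and left ventricle, nanoplastics mouse 1). It was at most 0.27 (atrial section and right ventricle, control mouse 3). These r therefore cannot decide whether the numbers link the mice. Mrpl52 was called in 11 of 17 alternatives (log2 0.33 to 0.67, adjusted p 0.00555 to 0.160) and Mrpl23 in 8 of 17 (0.27 to 0.62, adjusted p 0.00732 to 0.210). Small changes turned sign under some alternatives. With 1 mouse left out, Mrps12 ranged from -0.13 to 0.042, Mrps7 from -0.031 to 0.11, Mrps22 from -0.072 to 0.084, Mrpl44 from -0.18 to 0.070 and Mrps30 from -0.097 to 0.11. With library totals Mrps7 was -0.23 and Mrps18c -0.056. With the replicate block Mrps7 was -0.031 and Mrps22 0.088. With the length trend removed Mrps22 was 0.078, Mrps18c -0.030 and Mrps30 0.070. Mrps22 was also 0.015 with DESeq2 size factors, 0.015 with DESeq2, 0.017 without both doubtful libraries and 0.00038 in ventricles alone, and Mrps30 was 0.0027 with voom. The causes were not tested. Groups of 4 and 3 mice and a right ventricular library of 4662 counts limit what could be called.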
